A study of Homo sapiens with 10 samples.

Results

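PTPRG, C3orf14, THOC7, ATXN7, PSMD6, PRICKLE2, MAGI1, SLC25A26, LRIG1 and SUCLG2 are 10 protein-coding neighbours on the short arm of human chromosome 3, in band 3p14. They were chosen by symbol from the 57955 genes deposited, because their mRNA was low in the drug-resistant WM983A line in an earlier look at the same libraries, so the difference within WM983A is a description and was not tested. All 10 passed the filter on low counts, as did 17287 genes in all. In GRCh38 they lie on chromosome 3 between 61561569 and 67654612, over 6.09 Mb. They were described as lost, but none was at 0 in resistant WM983A, where they had 34 (LRIG1) to 930 (PSMD6) counts, so they are called low here.

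The study sequenced mRNA of 5 BRAF-mutant human melanoma lines, WM983A, WM278 and WM902B from primary tumours and WM983B and WM1617 from metastases, each as the original line sensitive to encorafenib (a BRAF inhibitor) and binimetinib (a MEK inhibitor) and as a derived resistant line, called E+B RES in the labels. WM983A and WM983B came from a single patient, and so did WM278 and WM1617. The resistant cells had been selected by dose escalation (1 nM at first, 200 nM at the end, 3 to 5 months in between) and were still in the drugs, so resistance and the presence of the drugs cannot be told apart. Each line and state gave 1 library, so a ratio within a line has no replicate error, and the intervals below cover counting error only.

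Genes that stand side by side on a chromosome often have unrelated jobs, and these 10 do. THOC7 is part of the THO complex that couples transcription to mRNA export, ATXN7 belongs to the SAGA histone-modifying complex, and PSMD6 is a subunit of the 19S cap of the proteasome. SLC25A26 carries S-adenosylmethionine into mitochondria and SUCLG2 is the GTP-forming subunit of succinyl-CoA ligase in the citric acid cycle. PTPRG is a receptor tyrosine phosphatase, LRIG1 a membrane protein that dampens receptor tyrosine kinases, MAGI1 a scaffold of cell junctions and PRICKLE2 a planar cell polarity protein. Band 3p14 also holds the fragile site at FHIT, and the melanocyte regulator MITF lies nearby towards the centromere.

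Promoters (250 bases before to 50 after a gene start, from RefSeq, GRCh38.p14) could be matched for 8 of the 10 genes, with 19 promoters. The E-box letters CACGTG, a sequence that MITF and other basic helix-loop-helix factors can read, were searched because MITF lies in the same stretch of chromosome and its level is given below. They are their own reverse complement, so a single search covers both strands. They stood in 2 of the 19 promoters, those of MAGI1 and SLC25A26, and in 7.26% of all 35116 promoters of that length. Another E-box, CATGTG on either strand, stood in 1 promoter each of PTPRG and PRICKLE2 and in 11.1% of all promoters. The matches describe letters only, and the factor's binding was not tested. Both CACGTG promoters are shown 5′ to 3′ on the gene's strand, with the E-box in capitals. That of MAGI1 is chr3:66038869-66039168 on the minus strand, and that of SLC25A26, an alternative start inside the annotated gene, is chr3:66220751-66221050 on the plus strand and holds the letters at 2 places.
MAGI1: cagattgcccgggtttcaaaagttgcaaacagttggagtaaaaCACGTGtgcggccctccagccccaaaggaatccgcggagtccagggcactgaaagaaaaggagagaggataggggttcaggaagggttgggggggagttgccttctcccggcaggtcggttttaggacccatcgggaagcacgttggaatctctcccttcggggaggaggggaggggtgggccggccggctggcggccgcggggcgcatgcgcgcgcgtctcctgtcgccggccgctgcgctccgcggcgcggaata
SLC25A26: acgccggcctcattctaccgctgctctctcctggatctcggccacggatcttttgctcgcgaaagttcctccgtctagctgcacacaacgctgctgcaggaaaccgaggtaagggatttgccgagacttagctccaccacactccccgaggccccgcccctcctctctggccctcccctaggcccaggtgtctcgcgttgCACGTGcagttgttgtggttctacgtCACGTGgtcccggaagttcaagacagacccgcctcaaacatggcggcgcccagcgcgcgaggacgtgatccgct

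The totals were 13693926 to 18033170 counts per library, and 3 counts, taken as the floor of detection, equal 0.172 to 0.230 CPM (read counts put on a fixed library size with TMM factors). The resistant WM983A library stood apart. Across 17287 genes its log2 levels had a Pearson correlation of 0.787 with sensitive WM983A. The correlation was 0.7925, 0.7947 and 0.813 with sensitive WM983B, WM278 and WM902B, and 0.772 with sensitive WM1617. For each of the other 4 resistant libraries the highest correlation was with its own parental line (0.869 to 0.976). All 8 melanocyte markers were at least 2-fold lower in resistant than in sensitive WM983A. This was not particular to WM983A, since 7 of the 8 were lower in WM983B and 6 in WM902B. In WM278 and WM1617 0 were. Their summed level was 3515 and 89.6 CPM in sensitive and resistant WM983A, 2035 and 140.5 CPM in WM983B, and 2905 and 233 CPM in WM902B. Over the other lines it was 429 to 4501 CPM in the sensitive and 140.5 to 4429 CPM in the resistant libraries. The summed level of 7 fibroblast markers was 65.3 CPM in sensitive and 8.83 CPM in resistant WM983A, and it was 9.29 to 80.2 CPM in the other sensitive and 18.2 to 1589 CPM in the other resistant libraries. In WM983A COL1A2 was at 0 in both states, COL3A1 at 0 in the sensitive library and DCN at 0 in the resistant one. The part of these differences between libraries in the results below was not tested.

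In WM983A all 10 genes were lower by 2-fold or more after selection. Across all genes past the filter 19.4% were, and since the genes were chosen on this contrast nothing is read from the count. Their log2 ratios of resistant to sensitive, from normalized counts with 1 added, ran from -1.65 (MAGI1) to -5.50 (LRIG1) with a median of -3.68, while the median of all genes was 0.03. The other 4 lines gave ratios in both directions. In WM983B 1 was at least 2-fold lower and 4 were at least 2-fold higher (11.2% and 16.2% of all genes), with a median log2 ratio of 0.34. WM278 had 3 lower and 0 higher (7.00% and 12.1% of all genes) and a median of -0.26. None passed 2-fold in either direction in WM1617 (3.80% and 2.83% of all genes), where the median was -0.48. In WM902B MAGI1 was lower and PRICKLE2 higher (12.0% and 15.4% of all genes), and the median was 0.19.

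**Figure D1:**
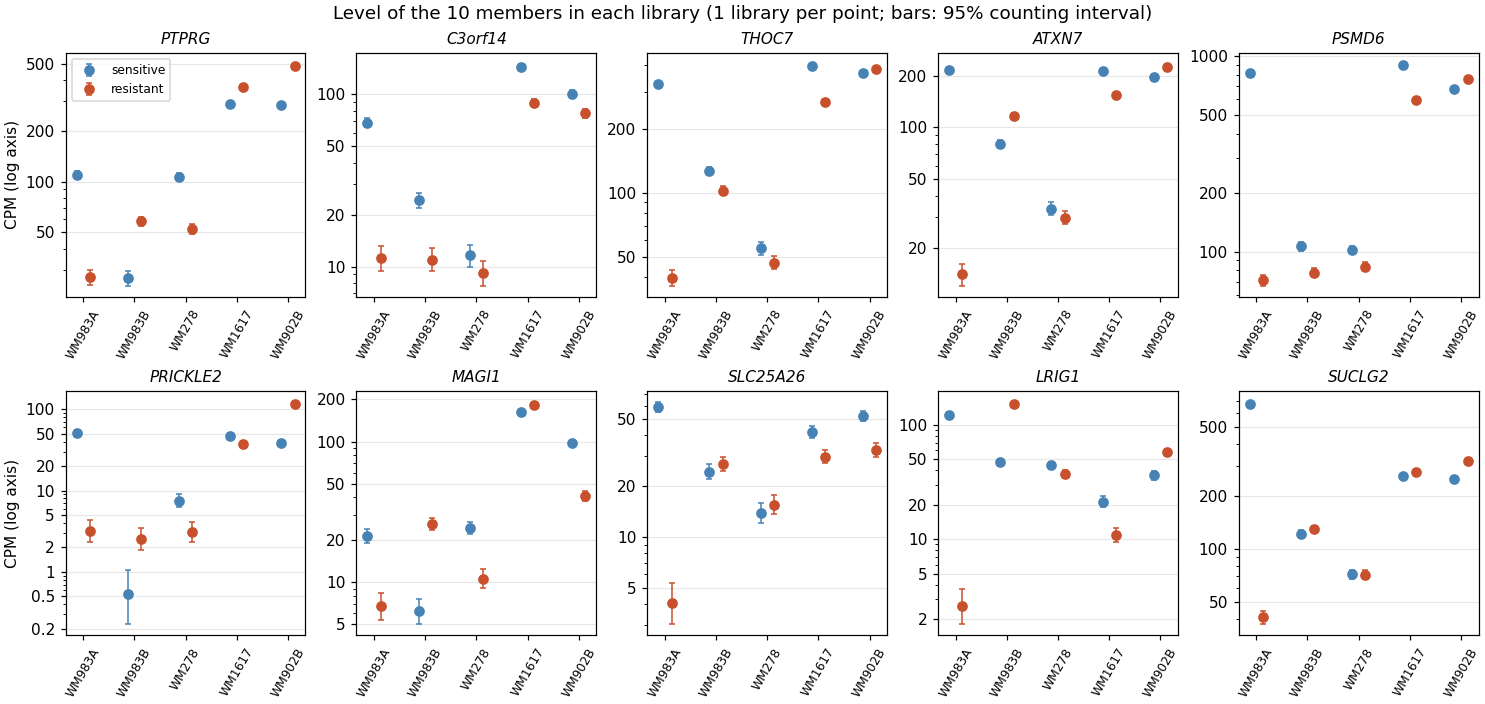
Level of each of the 10 genes in CPM on a log axis, in sensitive (blue) and resistant (orange) libraries of the 5 lines, with 95% counting intervals and 1 library per point. Resistant WM983A lies below sensitive WM983A in every panel, and WM983B and WM278 hold low levels of most of the genes in both states, for example 78.1 to 106.3 CPM of PSMD6.

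PSMD6 showed the contrast between lines most plainly. Sensitive WM983A, WM983B, WM278, WM1617 and WM902B held 823, 106.3, 102, 895 and 676 CPM. In the resistant libraries, in the same order of lines, it had 71.4, 78.1, 83.7, 597 and 763 CPM. Resistant WM983A was thus the lowest of the 10 libraries, 11.5-fold below sensitive WM983A (log2 ratio -3.53, 95% counting interval -3.62 to -3.43), and close to both libraries of WM983B and WM278. Those lines were low before and after selection, and no ratio of PSMD6 in the other 4 lines was larger than 0.585 in size on the log2 scale.

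THOC7 and ATXN7 start next to each other on opposite strands, and their annotated bodies overlap over 714 bases, of which 2 are exonic in both. THOC7 had 325, 127, 54.7, 394 and 366 CPM in sensitive WM983A, WM983B, WM278, WM1617 and WM902B. Its resistant values were 39.9, 102, 46.8, 269 and 385 CPM. The log2 ratio was -3.03 in WM983A (-3.16 to -2.90) and -0.55 to 0.07 in the other lines, with the lowest level of the 10 libraries again in resistant WM983A. In ATXN7 the resistant WM983A level was lowest as well. Its sensitive values were 215, 80.0, 33.6, 212 and 195 CPM and its resistant values 13.98, 116, 29.9, 153 and 226 CPM. In WM983A the ratio was -3.93 (-4.16 to -3.73), and in the other lines it stayed between -0.47 and 0.53.

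The mitochondrial genes SUCLG2 and SLC25A26 were also at their lowest in resistant WM983A. SUCLG2 had 676, 122, 71.9, 262 and 252 CPM in the sensitive libraries, with its highest level of all 10 libraries in WM983A. The resistant libraries held 40.7, 131, 71.5, 277 and 317 CPM. That gave a log2 ratio of -4.05 in WM983A (-4.18 to -3.93), whereas the other lines lay between -0.01 and 0.33. SLC25A26 had 58.7, 24.4, 13.9, 42.1 and 52.3 CPM in sensitive and 4.07, 27.2, 15.6, 29.9 and 32.8 CPM in resistant libraries. Its 53 counts in resistant WM983A gave a ratio of -3.83 (-4.28 to -3.45), against -0.67 to 0.16 elsewhere.

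LRIG1 had the largest difference of the 10 within WM983A and a pattern of its own between lines. Sensitive values were 121, 47.0, 44.2, 21.4 and 36.2 CPM. Resistant values were 2.61, 151, 37.4, 10.9 and 57.6 CPM, where 2.61 CPM stands for 34 counts. The ratio in WM983A was -5.50 (-6.07 to -5.05), which is 45.3-fold lower. In WM983B, from the same patient, LRIG1 was 3.21-fold higher in the resistant library (1.68, 1.56 to 1.81), and WM1617 was its lowest sensitive line although most of the other genes were high there. SLC25A26 and LRIG1 overlap at their ends on opposite strands, from 66378797 to 66388116 in GRCh38. The 2669 bases that are exonic in both are 37.9% of the LRIG1 and 12.2% of the SLC25A26 exon bases. Whether counting used strand is not given in the sources used here, so reads from these bases cannot be assigned to either gene.

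PRICKLE2 had the widest range between sensitive lines, 96.5-fold, and the lowest single level. Sensitive libraries held 51.2, 0.530, 7.53, 46.6 and 38.8 CPM, where 0.530 CPM in WM983B is 8 counts. Resistant libraries held 3.23, 2.57, 3.13, 37.2 and 116 CPM. The ratio was -3.96 in WM983A (-4.47 to -3.54), -1.25 in WM278 (-1.78 to -0.78), 1.58 in WM902B (1.44 to 1.72) and 2.15 in WM983B, where the few counts leave an interval of 1.17 to 3.58. Resistant WM983A, WM983B and WM278 thus had overlapping levels of PRICKLE2 although their ratios ran in different directions.

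MAGI1 had the smallest difference in WM983A. Its sensitive values were 21.4, 6.23, 24.2, 162 and 98.1 CPM, and its resistant values 6.76, 26.1, 10.6, 183 and 40.8 CPM. Ratios were -1.65 in WM983A (-2.02 to -1.32), -1.19 in WM278, -1.26 in WM902B, 2.06 in WM983B and 0.17 in WM1617. Here the lines of metastatic origin were higher and the lines of primary origin lower in the resistant state.

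PTPRG and C3orf14, at the end farthest from the centromere, had smaller differences in WM983A than the others apart from MAGI1. PTPRG had 109.8, 26.7, 106.4, 288 and 283 CPM in sensitive and 27.1, 58.2, 52.6, 363 and 486 CPM in resistant libraries. Its ratio was -2.02 in WM983A (-2.19 to -1.85), where the resistant library was close to sensitive WM983B. C3orf14, a little-studied gene, had 68.4, 24.3, 11.6, 144 and 101 CPM in sensitive and 11.2, 11.0, 9.19, 89.0 and 77.5 CPM in resistant libraries. Its ratio was -2.60 in WM983A (-2.87 to -2.36) and negative in all 5 lines, with -1.14 in WM983B (-1.41 to -0.88) and -0.69 in WM1617.

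Across the 10 genes, resistant WM983A was the lowest library for 6 (THOC7, ATXN7, PSMD6, SLC25A26, LRIG1 and SUCLG2) and ranked 2 to 4 from the lowest for PTPRG, C3orf14, PRICKLE2 and MAGI1. The members' median level, as log2 relative to each gene's median over the 10 libraries, was 0.93 in sensitive WM983A and -2.18 in resistant WM983A. It was -0.74 and -0.67 in sensitive and resistant WM983B, -1.22 and -1.47 in WM278, 1.25 and 0.87 in WM1617, and 1.10 and 0.87 in WM902B. In the sensitive state, 1 line of each pair from a single patient was high and the other low. Sensitive WM983A had 2.41 (SLC25A26) to 96.5 (PRICKLE2) times the level of sensitive WM983B. Sensitive WM1617 had 2.71 (PTPRG) to 12.4 (C3orf14) times the level of sensitive WM278 for 9 genes and 0.484 times for LRIG1. These are differences between single libraries and were not tested.

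Per kilobase of annotated exon, THOC7 had the highest median level over the 10 libraries (113 CPM per kb), followed by SUCLG2 (62.0), PSMD6 (38.8), C3orf14 (10.6), ATXN7 (8.78), PTPRG (7.39), LRIG1 (5.79), MAGI1 (2.14), PRICKLE2 (1.52) and SLC25A26 (1.31). The size of the difference in WM983A did not follow this order, since it was largest for LRIG1 and SUCLG2 and smallest for MAGI1 and PTPRG. The log2 levels of the genes went together across libraries. Over the 10 libraries the 45 pairs of genes had a median Pearson r of 0.76, from -0.01 (MAGI1 with LRIG1) to 0.97, and over the 8 libraries without WM983A a median of 0.80, from -0.58 (C3orf14 with LRIG1) to 0.99. The points are libraries that share lines, and the values are a description.

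To test resistant against sensitive on libraries that the choice of genes did not use, the 4 lines other than WM983A were fitted (edgeR quasi-likelihood test on 8 libraries, Benjamini-Hochberg adjustment over 17465 genes). Of the 10 genes 0 were called at an adjusted p of 0.05 and a fold of 2, and 0 of all 17465 were (0%). At an unadjusted p of 0.05 and a fold of 2, 562 genes passed (3.22%), and 0 of the 10. DESeq2 called 18 genes, again 0 of the 10. LRIG1 had the smallest p of the 10 (0.278, adjusted p = 0.933 in edgeR), with a log2 fold change of 0.79 ± 0.68 (SE, 4 lines) and a higher level in 2 of 4 resistant lines. That value rested on WM983B, without which it was 0.06, and with the cell line as a block it was 0.29. SUCLG2 had 177 ± 94.7 CPM (SD, n = 4) in sensitive and 199 ± 117 CPM in resistant lines, with a log2 fold change of 0.17 ± 0.56 (SE). The spread between lines was larger than the difference between states for PSMD6 too, at 445 ± 403 CPM in sensitive and 380.3 ± 352 CPM in resistant lines (-0.23 ± 0.97, SE). Comparing states within lines, with the cell line as a replicate block, C3orf14 had the smallest p of the 10 (0.0191, adjusted p = 0.422 in edgeR) and a log2 fold change of -0.64, lower in 4 of 4 resistant lines.

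Within 5 Mb on either side of the 10 genes (chromosome 3, 56561569 to 72654612 in GRCh38, annotated with GENCODE 44), 49 other genes passed the filter. Of these, 36 (73.5%) were at least 2-fold lower in resistant WM983A, with a median log2 ratio of -2.32. On the rest of chromosome 3 it was 183 of 892 genes (20.5%), with a median of -0.20. The window was set around genes chosen as low in these same WM983A libraries, and some neighbours overlap the chosen genes. The neighbours' share is therefore a description and was not tested. Among the neighbours 26 of 32 protein-coding genes, 10 of 13 long non-coding RNAs and 0 of 4 processed pseudogenes were lower. In WM983B 7 of the 49 passed this threshold (14.3%, against 11.2% of all genes) and in WM278 8 did (16.3% against 7.00%). WM1617 had 7 (14.3% against 3.80%) and WM902B 6 (12.2% against 12.0%).

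**Figure D2:**
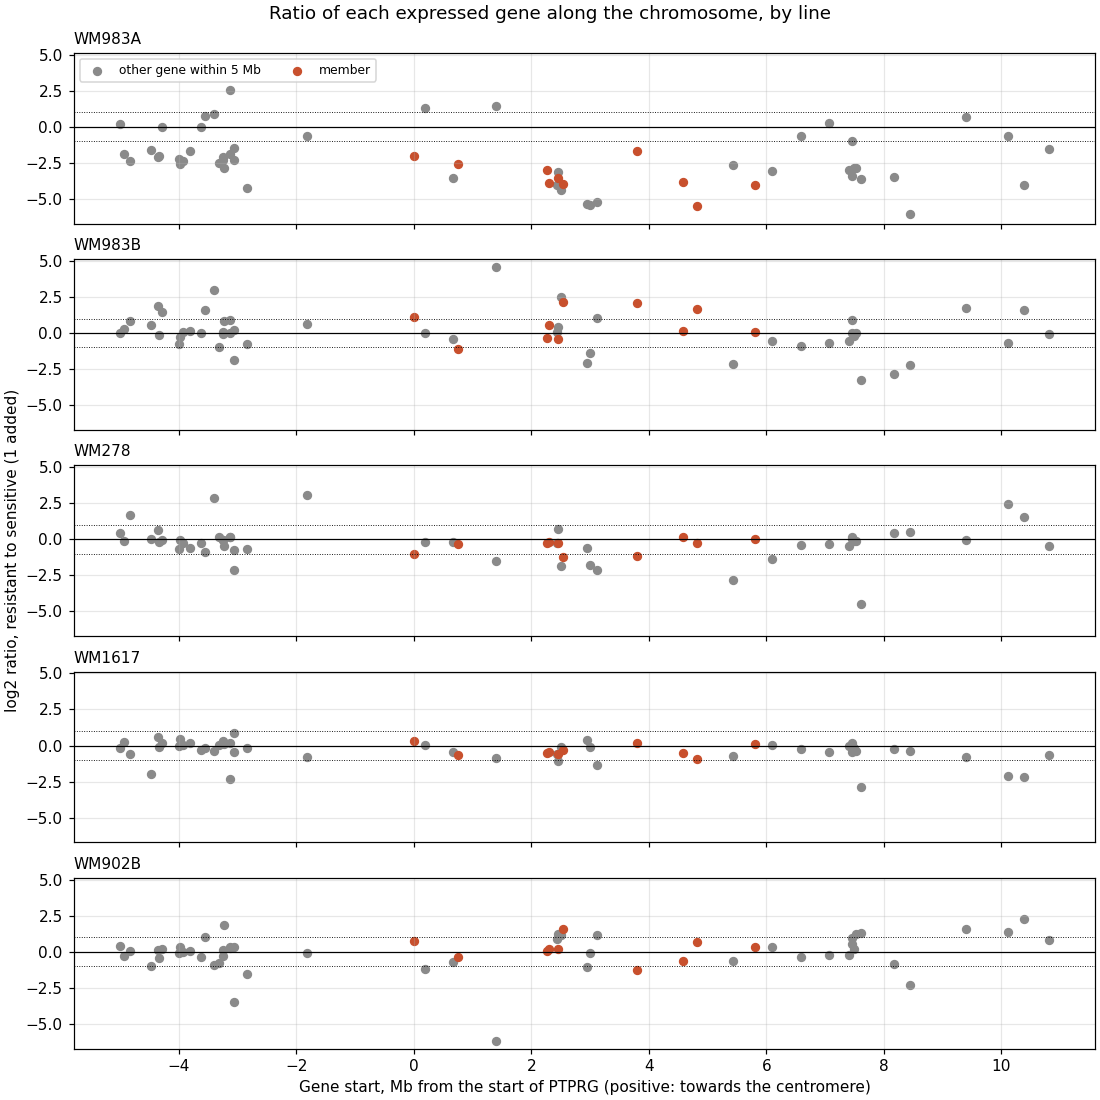
Log2 ratio of resistant to sensitive for every gene past the filter, by the distance of its start from the start of PTPRG in Mb (positive towards the centromere), in the 5 lines. Orange points are the 10 genes, grey points the 49 neighbours, and dotted lines mark 2-fold. In WM983A most points lie below the lower dotted line, and in the other 4 lines they scatter about 0.

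Between PTPRG and SUCLG2, 8 of 10 other genes were at least 2-fold lower. ADAMTS9, a secreted metalloprotease, had 318 CPM in sensitive and 7.76 CPM in resistant WM983A (log2 ratio -5.35), and KBTBD8, a ubiquitin ligase adaptor that acts in neural crest, had 8.16 and 1.23 CPM (-2.67). The antisense and other non-coding RNAs PTPRG-AS1 (-3.59), PSMD6-AS2 (-4.01) and PRICKLE2-AS1 (-4.37) were low with the genes they overlap, from which their reads cannot be told apart where exons overlap if strand was not used. The exceptions were the pseudogene RPL10AP6 (1.29), whose reads can come from related ribosomal protein genes, and LINC00698 (0.329 and 0.999 CPM, 1.43).

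Farther from the centromere, beyond PTPRG, 17 of 24 genes were at least 2-fold lower. FHIT, the nearest, was not (3.29 and 2.07 CPM, -0.65), but the next protein-coding gene, C3orf67, was (83.0 and 4.30 CPM, -4.25). The stretch went on through PDHB, a subunit of pyruvate dehydrogenase (208 and 57.1 CPM, -1.86), ARF4, a GTPase of membrane traffic (841 and 138 CPM, -2.60), APPL1, an endosomal adaptor (204 and 49.6 CPM, -2.04), and FAM208A, a subunit of the HUSH silencing complex (272 and 72.6 CPM, -1.90). CCDC66, at the far edge of the window, had 11.7 and 13.3 CPM (0.18).

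These distal neighbours differed from the 10 genes in the line that shared the high level. Their median relative log2 level was 1.54 in sensitive WM983A and 1.53 in sensitive WM983B, 1.74 in resistant WM983B, and -0.23 to 0.02 in the 7 remaining libraries, resistant WM983A (-0.20) among them. APPL1, for example, had 224 CPM in sensitive and 205 CPM in resistant WM983B and 40.9 to 77.7 CPM in the 6 libraries of WM278, WM1617 and WM902B. At these genes resistant WM983A was close to the 6 libraries of those lines, whereas at the 10 genes its median was the lowest of all libraries.

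On the other side, 11 of 15 genes beyond SUCLG2 were at least 2-fold lower. EOGT, a glycosyltransferase (189.99 and 23.5 CPM, -3.01), TMF1, a Golgi protein (456 and 43.5 CPM, -3.39), UBA3, the catalytic subunit of the NEDD8-activating enzyme (507 and 70.8 CPM, -2.84), and ARL6IP5 (751 and 105 CPM, -2.84) stand near each other and had similar ratios. MITF had 385 and 34.3 CPM (-3.49), and the adjoining melanoma non-coding RNA SAMMSON 9.34 and 0.0768 CPM, the latter from 1 count (log2 count ratio with nothing added -6.93, counting interval -12.24 to -4.42). MITF was also lower in resistant WM983B (264 and 36.9 CPM, -2.84), where most of the 10 genes were not. The nearest gene that was not at least 2-fold lower was the pseudogene COPS8P2 (13.3 and 8.60 CPM, -0.62). The nearest such coding gene was FOXP1, a transcription factor (13.7 and 21.9 CPM, 0.67), and after it EIF4E3 (17.2 and 11.1 CPM, -0.62). They did not end the low stretch. RYBP, at the edge of the window, was again at least 2-fold lower (62.2 and 21.4 CPM, -1.54). So were SHQ1 (-1.74), GXYLT2 (-3.86), PPP4R2 (-1.40) and PDZRN3 (-5.64), flanking genes outside the window.

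**Figure D3:**
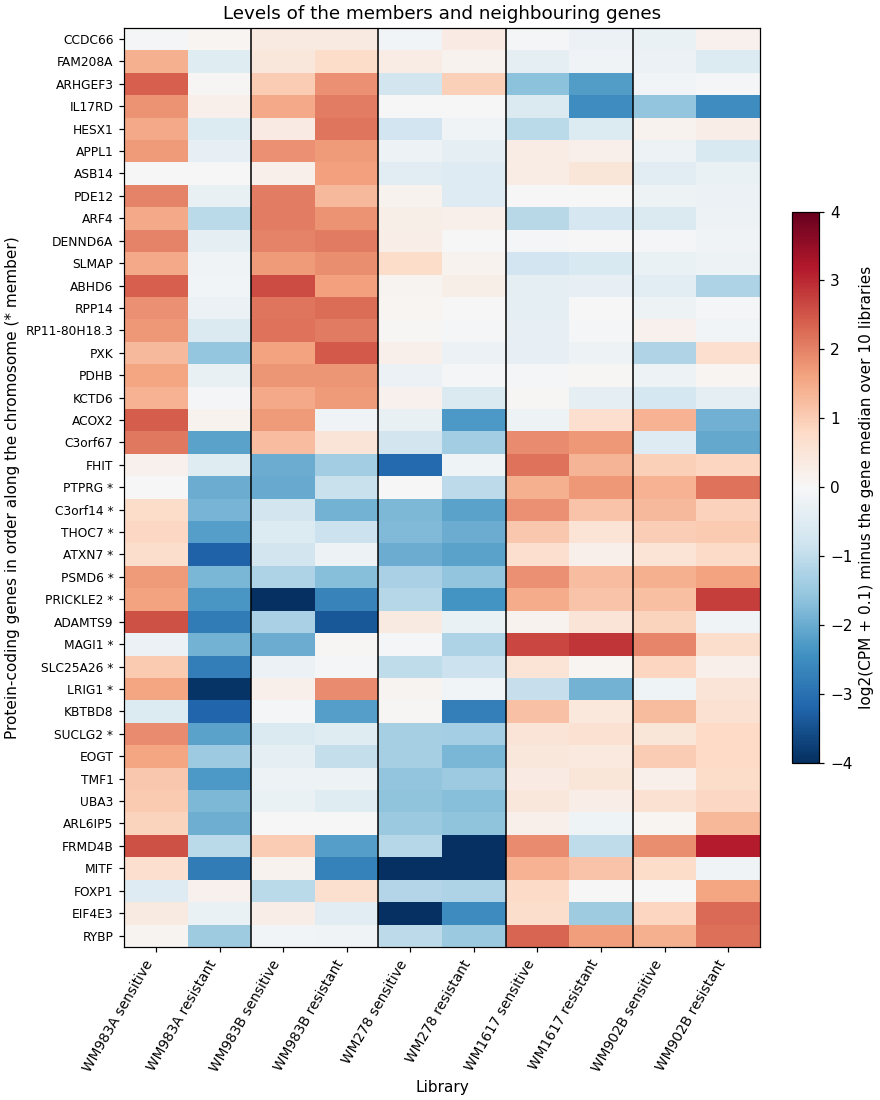
Level of the 10 genes (asterisks) and of the protein-coding neighbours named on the axis, in chromosome order, as log2(CPM + 0.1) minus the gene's median over the 10 libraries, with red above and blue below it and colours ending at 4 in either direction. The 10 genes are mostly red in sensitive WM983A and in WM1617 and WM902B, and blue in resistant WM983A and in most cells of WM983B and WM278, whereas the neighbours above them in the map are red in sensitive WM983A and both WM983B libraries.

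Read along the whole genome in runs of 10 consecutive protein-coding genes past the filter, 16 of 12742 runs had every gene at least 2-fold lower in resistant WM983A. Of these 9 were on chromosome 3, and each of the 9 held at least 1 of the 10 genes, out of 21 runs that did. Since the 10 genes were chosen for low ratios in WM983A, their place among these runs follows from the choice and is a description. The run with the lowest median log2 ratio in WM983A was on chromosome 19, from ZNF880 to ZNF468 (-4.98). All 10 of its genes were at least 2-fold lower. The run from THOC7 to SUCLG2 came next among runs that do not overlap (-3.88), and 8 of its 10 genes are chosen ones. No run was lower throughout in WM983B, WM278, WM1617 or WM902B. Overlapping runs share genes and are not independent.

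The genes that work with the 10 were followed in lists set by function. In WM983A 19.4% of all genes were at least 2-fold lower and 16.9% at least 2-fold higher, and the counts of each list stand against these shares. Of 18 other 19S proteasome subunits 0 were at least 2-fold lower and 3 were at least 2-fold higher, PSMC4 (96.5 and 266 CPM, 1.46), PSMD8 (1.24) and SHFM1 (1.05), with a list median of 0.55. Of 12 THO and mRNA export genes THOC5 was lower (-1.02) and THOC6 (22.5 and 65.1 CPM, 1.53) and DDX39B (0.263 and 3.76 CPM, 3.54) were higher, with a median of 0.35. The DDX39B ratio rests on 4 counts in sensitive and 49 in resistant WM983A, the former close to the floor. The SAGA list had 1 of 20 lower, the acetyltransferase KAT2B (91.7 and 15.7 CPM, -2.54), and 4 higher, led by SGF29 (1.29), TAF9 (1.11) and SUPT3H (1.10), with a median of 0.46. In the citric acid cycle list IDH3A was the single gene lower of 16 (-1.21), and none was higher. All 5 genes of the S-adenosylmethionine cycle stayed within 2-fold.

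**Figure D4:**
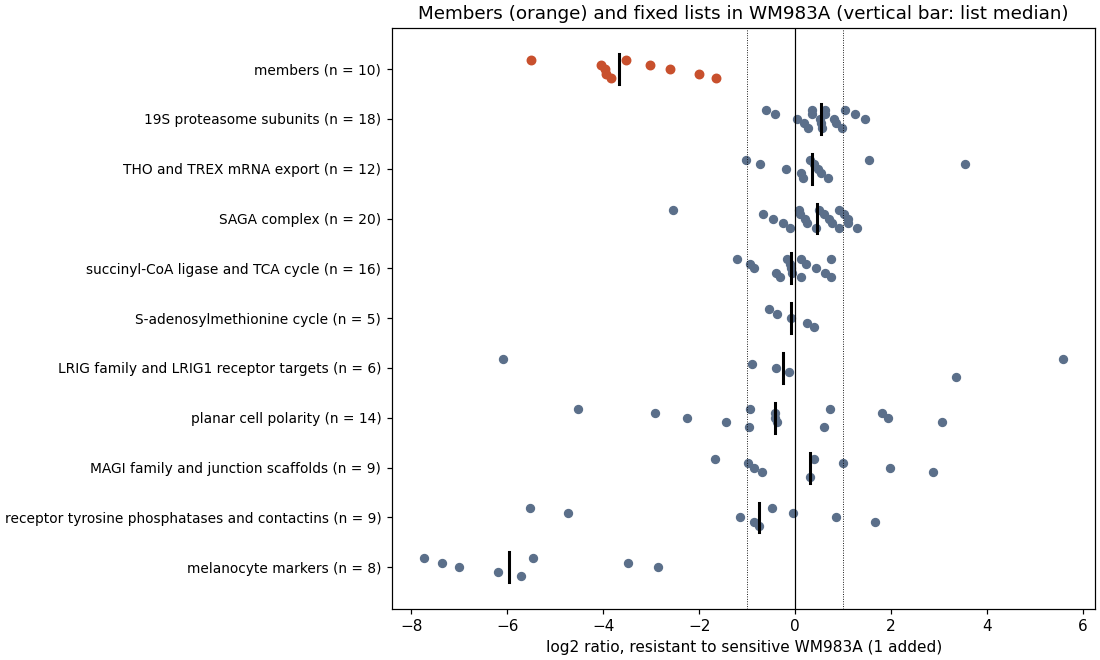
Log2 ratio of resistant to sensitive WM983A for the 10 genes (orange), 9 lists of their functional partners and relatives, and melanocyte markers, with 1 point per gene, a vertical bar at each median and dotted lines at 2-fold. The medians of the partner lists lie between -0.76 and 0.55, while that of the 10 genes is -3.68.

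Lists of membrane proteins were more spread out and held single genes with ratios as low as those of the 10. Among LRIG relatives and the receptors that LRIG1 acts on, 6 passed the filter, and EGFR (3.55 and 175 CPM, 5.59) and MET (25.0 and 257 CPM, 3.36) were higher in resistant WM983A while ERBB3 (412 and 5.99 CPM, -6.09) was lower. Of 14 planar cell polarity genes 4 were lower, with VANGL2 (-4.53), FZD3 (-2.91) and CELSR2 (-2.26) first, and 3 were higher, CELSR3 (3.06), CELSR1 (1.93) and the PRICKLE2 paralogue PRICKLE1 (1.81). Of 9 MAGI relatives and junction scaffolds PATJ (2.88) and TJP1 (1.97) were higher. Of 9 receptor tyrosine phosphatases and contactins PTPRZ1 (10.1 and 0.154 CPM, the latter from 2 counts, log2 count ratio -6.03, counting interval -9.09 to -4.16), CNTN1 (-4.74) and PTPRK (-1.14) were lower and PTPRJ (1.66) was higher. In the fit of the other 4 lines 0 of all 17465 genes were called (0%). The 0 calls in these lists follow from that, and nothing is read from them.

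Outside the window, the 5 genes whose log2 level followed the mean of the 10 genes most closely over the 10 libraries were MFAP1 on chromosome 15 (Pearson r of 0.94), FAM212A on chromosome 3 (0.94), WDR81 on chromosome 17 (0.93), FEM1B on chromosome 15 (0.93) and the non-coding RNA RP13-941N14.1 on chromosome 12 (0.93). MFAP1, a splicing protein, had 59.5 CPM in sensitive and 31.8 CPM in resistant WM983A (log2 ratio -0.90), a smaller difference than any of the 10 genes. These 5 were picked as the highest of all genes tested, so their correlation is a description.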

How the data were processed

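The 10 libraries, from 5 melanoma lines in 2 states, were made after oligo-dT selection and read single-end for 75 cycles. For alignment the authors used HISAT2 with GRCh38, and for gene values StrandNGS. The values deposited are expected counts per Ensembl gene, of which 24.1% above 0 are whole, and normalized values on a log2 scale, which hold log2 ratios within a line, sensitive state as reference, on the authors' DESeq scaling. The latter were used to recover 455 values that the table of sensitive WM983B holds as dates, none of them of the 10 genes, and all 455 fitted the visible digits.

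Expected counts were rounded, filtered with filterByExpr by condition, scaled by TMM and analysed in R 4.3.3 (edgeR 4.0.16, DESeq2 1.42.0) and Python 3.11.15 (pandas 2.3.3, scipy 1.17.1, matplotlib 3.10.9). Log2 ratios have 1 added, and their 95% intervals are exact binomial intervals of the 2 counts, for counting error only. Gene IDs were matched to GENCODE 44 for 56911 of 57955 genes. The 4-line fit had no block, as the study's account of its sequencing test names no pairing. The resistant lines derive from the sensitive ones, so the line was also used as a block, and deviations of the lines from the state means correlated at 0.41 to 0.74. On simulated data for that fit with 17465 genes, edgeR called 200 of 200 changed genes at low spread (2 false calls) and 83 of 200 at higher spread (1 false), where DESeq2 called 112 (42 false). The simulated counts held no differences between lines, and every changed gene was shifted by more than 2-fold. These rates therefore do not give the power of the fit on the real lines.

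The 10 genes, the lists and the tests were chosen with earlier results of these data known. Named are the 10 genes, neighbours at least 2-fold lower in WM983A with the nearest that are not, the 3 largest ratios per direction and list, and the 5 most alike genes. FOXP1, CCDC66, EIF4E3, RPL10AP6, LINC00698, SHQ1, GXYLT2, PPP4R2 and PDZRN3 were named after their values were seen. Some items are not reported here.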

Additional observations from a re-analysis of the deposited data

Results flagged for a closer look

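MAGI1 was singled out because its log2 ratio of resistant to sensitive had opposite signs in the 3 lines of primary and the 2 lines of metastatic origin. It was -1.65, -1.19 and -1.26 in WM983A, WM278 and WM902B, and 2.06 and 0.17 in WM983B and WM1617. The mean of the primary lines minus that of the metastatic lines was -2.48. The difference was not tested, and the WM983A ratio was part of how the gene was chosen. In 20 groups of 5 libraries no level of the 10 genes stood far enough from the others to be marked as an outlier.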

How the results depend on the processing

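All 10 genes stayed at least 2-fold lower in WM983A under DESeq2 size factors, total-count scaling, 0.5 or 5 added, and unrounded counts, and 9 were at least 4-fold lower. Medians in each line kept their sign, and the largest shift of a single ratio was PRICKLE2 in WM983B with 5 added (1.76 against 2.15). PSMD6 in WM1617 was -0.64 with total-count scaling. That scaling also took LRIG1 in WM1617 past the 2-fold threshold (-1.01 against -0.96). PTPRG in WM278 no longer reached it (-0.92 against -1.02), so the 2-fold counts of those lines depend on the scaling. With no filter on low counts 62 of 127 neighbours were at least 2-fold lower, against 36 of 49, since more genes are tested, and at 4-fold 29 were. The share of all genes is given here only at 2-fold with the filter. Nothing is therefore read from the 4-fold and unfiltered counts. Leaving out pseudogenes, chosen after seeing the data, left 36. In the 4 other lines none of the 10 was called in any fit, with DESeq2 size factors, no filter, DESeq2, the replicate block or any line left out. Over all genes 18 were called by DESeq2, 17 of them higher, and 0 with edgeR in every setting, the replicate block included. With edgeR, genes passing an unadjusted p of 0.05 and 2-fold were 955 with the replicate block and 172 (without WM902B) to 1356 (without WM1617) with a line left out, against 562. Single libraries per line and state limit every ratio to counting error.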
